A study of Mus musculus with 4 samples.

Results

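Sfrp2, Aga, Ctsc, Rxfp3, Ddit4l, Lamp5 and RP24-323H7.4 are 7 of the 43348 genes counted in sorted interneurons of the mouse cortex and hippocampus. They were chosen by their wild-type (WT) values, for large differences between WT cortex and WT hippocampus, so the WT region values below are a description with no test. The question is whether these differences hold in interneurons without Grin1, and in which subtype of interneuron they lie.

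Interneurons born in the medial ganglionic eminence (MGE) release GABA and settle in both cortex and hippocampus, where they form the somatostatin (SST), parvalbumin (PVALB) and neurogliaform (NGFC) classes. The NMDA receptor, a glutamate-gated calcium channel, cannot assemble without the subunit that Grin1 encodes. The 7 genes do not form a pathway. Sfrp2 encodes a secreted protein that binds Wnt ligands and modulates Wnt signalling, and Rxfp3 the receptor of the neuropeptide relaxin-3. Aga (aspartylglucosaminidase, which breaks down glycoproteins) and Ctsc (cathepsin C, a protease best known from immune cells) encode lysosomal enzymes. Lamp5 encodes a lysosome-associated membrane protein of neurons and is a standard marker of NGFCs, and Ddit4l (also called Redd2) an inhibitor of mTORC1 signalling. RP24-323H7.4 is a locus named after a genomic clone.

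In GRCm38 coordinates (GENCODE vM21), Sfrp2 lies on chromosome 3 from 83766321 to 83774316, Ddit4l on chromosome 3 from 137621612 to 137628333, and Lamp5 on chromosome 2 from 136052239 to 136069917. Ctsc lies on chromosome 7 from 88278085 to 88310888, Aga on chromosome 8 from 53511727 to 53523421, and Rxfp3 on chromosome 15 from 11033717 to 11037991. These 6 are protein-coding genes. That annotation has no entry for RP24-323H7.4, so no position is given for it.

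Single-cell RNA-seq (10x Genomics) was made from TdTomato-positive cells sorted from slices of frontal cortex or hippocampus of mice aged 18 to 20 postnatal days. All mice carried Nkx2.1-Cre, which is active in the MGE lineage, and the Ai14 reporter that turns TdTomato on in Cre-expressing cells and their progeny. The null group had floxed Grin1 on both chromosomes, and the WT group had unmodified Grin1. Nkx2.1-Cre also labels cells that are not interneurons, the gate took these along, and tetrodotoxin, an NMDA receptor blocker and actinomycin D were present during dissociation in every group.

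There were 3 WT libraries and 2 null libraries from each region. Replicate 1 of every group used 10x chemistry v2, and the other replicates used v3. Several animals were pooled into the libraries and their cells could not be told apart. The cortical libraries held 9306756, 14212183 and 28057207 UMIs (WT replicates 1, 2 and 3) and 1488601 and 25688337 (null replicates 1 and 2). The hippocampal libraries held 10555408, 8782181 and 20639002 (WT) and 3856745 and 47338167 (null). Of 26987 barcodes, 26201 were kept. In WT these were 9037 of 9088 in cortex and 9953 of 9980 in hippocampus. The null groups kept fewer, with 2755 of 3079 in cortex and 4456 of 4840 in hippocampus. No pair of libraries shared more than 12 barcodes (0.312% of the smaller library) or more than 0.552% of the smaller library (1 barcode). Null replicate 1 is small in both regions, with 110 cortical and 103 hippocampal SST cells, where null replicate 2 had 727 and 832. In PVALB cells these numbers are 28 and 34, and 248 and 267. WT hippocampus replicate 2 stood apart by its depth (median 1479 UMIs per cell, where the other 9 libraries have 2912.5 to 9763). It also supplied 594 of the 643 WT hippocampal cells of SST cluster 8 and 515 of the 553 of NGFC cluster 17.

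Levels are given as CPM, the UMIs of a gene scaled by all UMIs, over the summed cells of a class in a library, with sums of under 10 cells left out. In SST cells Grin1 read 153, 253 and 232 CPM in the WT cortical libraries and 119.8, 176 and 157 in the WT hippocampal ones, in the order of their replicate numbers. In the null libraries it read 36.7 and 28.5 in cortex and 23.1 and 21.7 in hippocampus. Every null library lay below every WT library of its region, and the pooled null level was 0.132 of WT in cortex and 0.143 in hippocampus. In PVALB cells these shares were 0.128 and 0.130 and in NGFCs 0.227 and 0.132, so some Grin1 reads remained in all 3 null classes. Whether these reads come from the deleted allele, from free RNA or from cells without recombination was not tested.

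The regional pattern of the 7 genes was largely still present in null SST cells. In them, 5 members (Aga, Ctsc, Rxfp3, Ddit4l and RP24-323H7.4) were higher in each hippocampal than in each cortical library, and 19.2% of the 12445 genes tested were so. Sfrp2 was lower in each hippocampal library, as were 10.1% of the genes, and Lamp5 overlapped. In WT SST cells, whose values chose the genes, Sfrp2 was lower (5.03% of genes) and the other 6 were higher (7.80%). The largest differences in null SST cells were those of Aga, Ctsc and Sfrp2. The null contrast was tested with edgeR on the 4 null libraries alone, and a gene passed at an adjusted p under 0.01 and a log2 change of 0.144 or more. All 7 members were kept by the filter on low counts. At that threshold edgeR passed none of the 12445 genes (0%), while 600 had an unadjusted p under 0.05. DESeq2 passed 37 (0.297%), Aga, Ctsc and Sfrp2 among them. At an adjusted p under 0.05, 3 genes passed as higher (0.0241%), namely Aga, Ctsc and Qrfpr, the last a gene outside the 7 that was singled out after its values were seen. Adding replicate number, which stands for 10x chemistry and may also tie the regions to shared animals, to the model as a block passed 29 genes (0.233%), Aga, Ctsc and Sfrp2 among them. Leaving out null cortex replicate 1 or 2 or null hippocampus replicate 1 or 2 gave 54, 11, 90 and 43 genes, with the lone library of a region assumed to vary like the others.

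Aga read 3.79, 4.58 and 6.10 CPM in SST cells of WT cortex and 180.2, 97.5 and 83.2 in WT hippocampus. In null cortex it read 13.3 and 6.98 CPM (mean 10.2 ± 4.49, SD, n = 2), and in null hippocampus 182 and 202 (192 ± 13.7, n = 2). The 5 hippocampal libraries lay far above the 5 cortical ones, with no overlap in either genotype. Pooled, the null hippocampus held 26.5-fold the cortical level (95% counting interval 21.2 to 33.7; 2758 and 78 UMIs), and the WT hippocampus 21.1-fold (17.6 to 25.5). Such intervals cover counting error only. Of 12445 genes, Aga had the smallest p of the null contrast (log2 = 4.41 ± 0.36, SE, adjusted p = 0.0144). With the replicate block its adjusted p was 0.00247, and over 18 alternatives it ranged from 3.48e-31 to 0.0409 with log2 from 3.78 to 4.73. It passed without null cortex replicate 1 or 2 (5.02e-05 and 0.00186) and without null hippocampus replicate 1 or 2 (4.25e-20 and 7.09e-08).

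Ctsc read 0.379, 0.458 and 0.343 CPM in SST cells of WT cortex and 15.8, 14.8 and 14.6 in WT hippocampus. In null cortex it read 0 and 0.634 CPM, and in null hippocampus 23.1 and 29.97. It was close to absent from cortical SST cells and present in all 5 hippocampal libraries, again with no overlap. The pooled null ratio was 50.7 (23.1 to 139; 405 and 6 UMIs) and the WT ratio 39.5 (20.7 to 84.6). In the null contrast log2 was 5.47 ± 0.54 (SE) with an adjusted p of 0.0303, the third smallest p of all genes. The block gave 0.00441, and 18 alternatives gave 2.09e-15 to 0.0486. Ctsc passed without null cortex replicate 1 (0.000285) and without null hippocampus replicate 1 or 2 (2.12e-12 and 0.00202), and not without null cortex replicate 2 (0.0106), where the remaining cortical library had 0 UMIs.

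Sfrp2 ran the other way. It read 19.0, 31.9 and 29.5 CPM in SST cells of WT cortex and 2.63, 1.48 and 2.17 in WT hippocampus. The null values were 38.9 and 21.4 CPM in cortex and 1.59 and 2.23 in hippocampus. In both genotypes every cortical library was above every hippocampal one, and the pooled cortical level was 13.3-fold the hippocampal level in WT and 10.5-fold in null cells (237 and 30 UMIs). The null log2 was -3.83 ± 0.48 (SE) with an adjusted p of 0.0576, and the block gave 0.00619. Over 18 alternatives log2 ran from -4.28 to -2.53 and the adjusted p from 6.57e-11 to 0.165. Leaving out null cortex replicate 1 or 2 or null hippocampus replicate 1 or 2 gave 0.00187, 0.00487, 6.62e-07 and 0.00448.

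RP24-323H7.4 read 0.569, 0.764 and 0.891 CPM in SST cells of WT cortex and 15.8, 13.8 and 15.4 in WT hippocampus, and 3.33 and 1.27 in null cortex and 19.9 and 11.9 in null hippocampus. All hippocampal libraries were higher, and the pooled ratio was 19.0 in WT and 8.71 (5.14 to 15.9) in null cells. It did not pass in the null contrast (log2 = 3.16 ± 0.61, adjusted p = 0.180). Over 18 alternatives log2 ran from 2.08 to 3.55. It passed in 1 of them, edgeR without the filter on low counts (adjusted p = 0.000147).

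Rxfp3 differed less between regions in SST cells. It read 13.1, 12.5 and 13.1 CPM in WT cortex, 37.3, 25.6 and 23.8 in WT hippocampus, 13.3 and 3.91 in null cortex, and 33.4 and 27.6 in null hippocampus. The hippocampal libraries were higher without overlap, but null cortex replicate 2, which lies below the other 4 cortical libraries, sets the size of the null ratio. Pooled, that ratio was 5.94 (4.41 to 8.17) and the WT ratio 2.14. The test did not pass (log2 = 2.20 ± 0.55, adjusted p = 0.354). Without null cortex replicate 1 it passed (log2 = 2.88, adjusted p = 0.00457), without null cortex replicate 2 log2 was 1.10 (0.741), and 18 alternatives spanned 0.000152 to 0.741.

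Ddit4l read 0.758, 1.83 and 0.754 CPM in SST cells of WT cortex and 9.46, 4.93 and 9.76 in WT hippocampus, and 4.44 and 2.22 in null cortex and 11.1 and 6.22 in null hippocampus. The regions did not overlap, the pooled ratio was 8.21 in WT and 2.76 (1.76 to 4.49) in null cells, and the test did not pass (log2 = 1.497 ± 0.599, adjusted p = 0.912). Lamp5 was scarce in SST cells, between 0.153 and 4.43 CPM in WT libraries. The null libraries read 6.66 and 0 CPM in cortex and 0 and 4.14 in hippocampus, which overlap, and the sign of its difference changed with the tool (log2 = 1.58 ± 1.75 with edgeR and -0.76 with DESeq2).

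**Figure D1:**
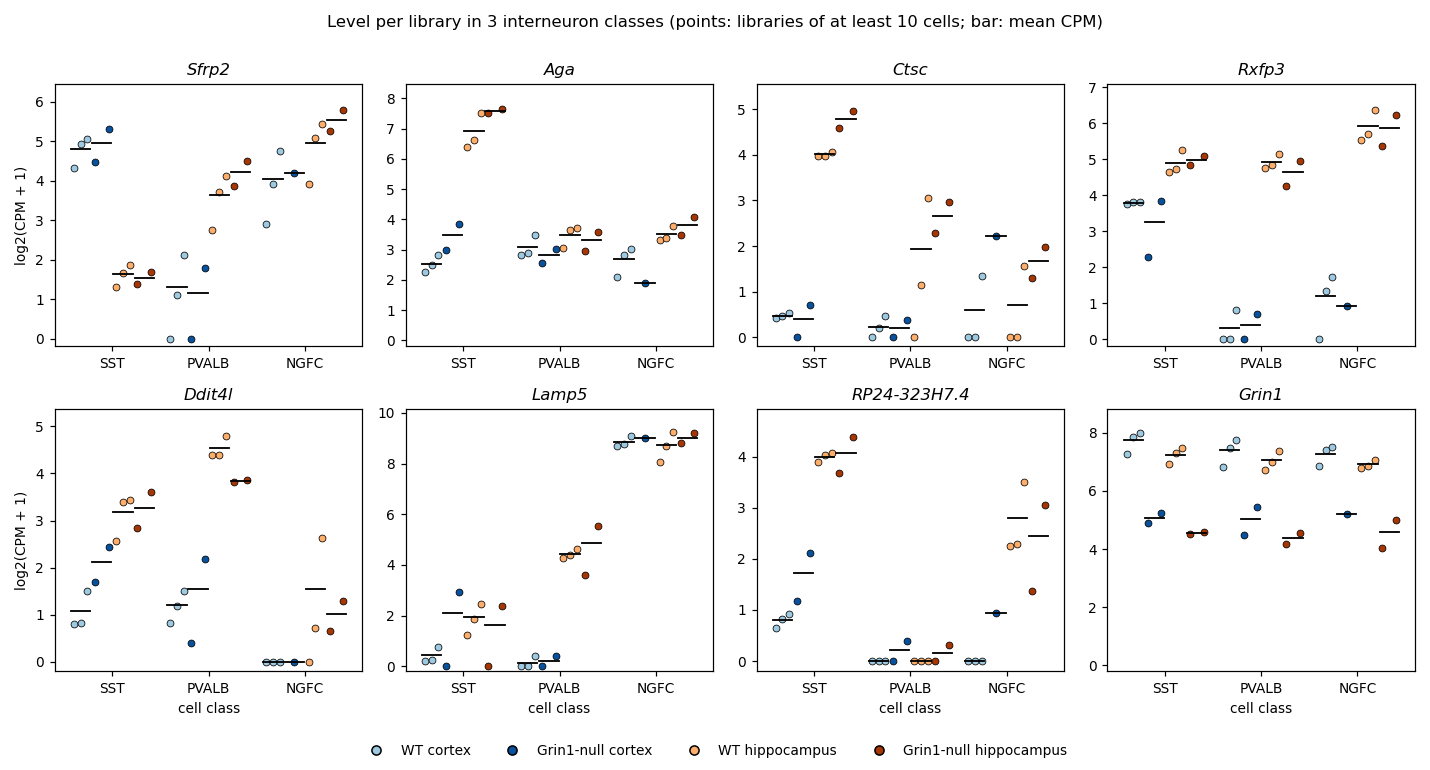
Levels of the 7 genes and of Grin1 per library in SST cells, PVALB cells and NGFCs, as log2(CPM + 1), with points for libraries of at least 10 cells and bars at the mean CPM of a group. In SST cells every hippocampal library is above every cortical one for Aga and Ctsc and below for Sfrp2, in both genotypes. Rxfp3, Lamp5 and Ddit4l separate the regions in PVALB cells.

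Within SST cells the largest differences lay in 1 subtype. The class is made of 7 clusters, among them cluster 10, whose markers are those of tyrosine hydroxylase (TH) cells. The 7 members were left out of the genes used for clustering. Cluster 4 (1556 cells; Cbln4, Qrfpr, Olfm3, Pdyn and Aga among its top genes) held 23.5% of WT and 42.5% of null hippocampal SST cells, and 20.2% of WT and 13.9% of null cortical ones. It supplied 653 of the 848 Aga UMIs of WT hippocampal SST cells (77.0%) and 2570 of 2758 in null (93.2%). For Ctsc these shares were 77.2 and 92.3%, and for Sfrp2 in cortex 83.2% (WT) and 71.7% (null).

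Aga in cluster 4 read 7.41, 2.32 and 5.75 CPM in WT cortex and 437, 118 and 270.1 in WT hippocampus, and 10.8 and 6.55 in null cortex and 403 and 429 in null hippocampus. Sfrp2 in the same cluster read 116, 99.9 and 105 CPM in WT cortex and 1.33, 4.90 and 1.07 in WT hippocampus, and 111 and 130.1 in null cortex and 1.90 and 2.55 in null hippocampus. Cells that cluster together across regions thus carried Sfrp2 without much Aga in cortex and Aga without much Sfrp2 in hippocampus, in WT and null libraries alike. Ctsc rose from 0, 0.581 and 0.287 CPM in WT cortex to 35.9, 26.1 and 48.2 in WT hippocampus, and read 0 and 2.81 in null cortex and 53.2 and 63.0 in null hippocampus. Cortical and hippocampal libraries did not overlap for any of the 3 genes in this cluster.

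The regional difference was not confined to cluster 4. In cluster 8, a cluster of low depth (median 1404 UMIs), pooled Aga was 8.31 CPM in WT cortex, 109 in WT hippocampus, 13.1 in null cortex and 140.5 in null hippocampus. Sfrp2 there was 41.6 CPM in WT cortex and 71.8 in null cortex, with 0 UMIs in hippocampus. In cluster 11 (Crh, Tac2) Aga was 5.87, 21.5, 8.19 and 43.1 CPM in the same order and Rxfp3 0.978, 30.9, 0 and 18.8. Cluster 22 (Chodl, Npy, Nos1) showed little Aga in any group, at 4.66, 8.01, 5.09 and 2.22 CPM. With 6 clusters given equal weight in both regions, Aga in null cells moved from log2 = 4.56 to 3.52 and Sfrp2 from -2.91 to -3.68. This setting reweights all 6 clusters, and the part of any single cluster was not tested. These log2 values are of pooled CPM with 1 added.

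RP24-323H7.4 was spread over several SST clusters of the hippocampus. Its pooled levels in cluster 4 were 0.170 CPM in WT cortex, 21.3 in WT hippocampus, 0 in null cortex and 19.1 in null hippocampus. In cluster 2 (Myh4, Chrna2) they were 1.42, 15.7, 1.93 and 8.42 CPM, and in cluster 25 (Myh8) 18.4 in WT and 24.3 in null hippocampus. Cluster 25 took 227 of its 246 WT cortical cells from replicate 1. In cortex Ddit4l lay in another subtype. TH cluster 10 carried it at 8.19 CPM in WT cortex, 10.7 in WT hippocampus, 10.3 in null cortex and 10.9 in null hippocampus, with little difference between regions, and held 81.5% of the cortical SST UMIs of Ddit4l in WT and 96.0% in null libraries. In cluster 4, where pooled Ddit4l was 0.511 CPM in WT cortex and 0 in null cortex, the hippocampal levels were 20.9 and 12.6. Cluster 4 supplied 48 of the 64 Ddit4l UMIs of WT hippocampal SST cells and 76 of 92 in null libraries, so the higher hippocampal level of Ddit4l lay mostly there, as for Aga and Ctsc.

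Oligodendrocyte markers moved with region in the SST sums. All 7 of 7 listed genes had UMIs in every library, summing to 740.4, 1534 and 649 CPM in WT cortex, 2832.5, 3485 and 1624 in WT hippocampus, 614 and 587 in null cortex, and 3186 and 1632 in null hippocampus. The mean level of Aga in oligodendrocytes was 51.0 CPM in null cortex and 43.0 in null hippocampus. Null hippocampal SST cells read 182 and 202 CPM. Null hippocampal SST cells with an Aga UMI carried the list at 1544 CPM and those without at 1916. In WT hippocampus these levels were 4176 and 1844 CPM, in null cortex 2660.0 and 343, and in WT cortex 2078 and 819. The part of oligodendrocyte RNA in the Aga values of SST cells was not tested in either region. Microglia carried Ctsc at 241 to 784 CPM, so microglial markers were read in SST cells too. The 6 microglial genes summed to 1.14, 0.917 and 4.59 CPM in WT cortex, 0, 0.985 and 0.542 in WT hippocampus, 0 and 0.211 in null cortex, and 7.16 and 0.399 in null hippocampus. In the 7.16 CPM of null hippocampus replicate 1, C1qb was the most abundant gene and Cx3cr1, Tmem119 and P2ry12 were at 0. Of SST cells with a Ctsc UMI, 0 of 84 in WT hippocampus and 1 of 179 in null hippocampus also had a microglial UMI. In cortex 2 of 10 such WT cells and 0 of 5 such null cells did. The part of microglial RNA in the Ctsc values of SST cells was not tested.

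**Figure D2:**
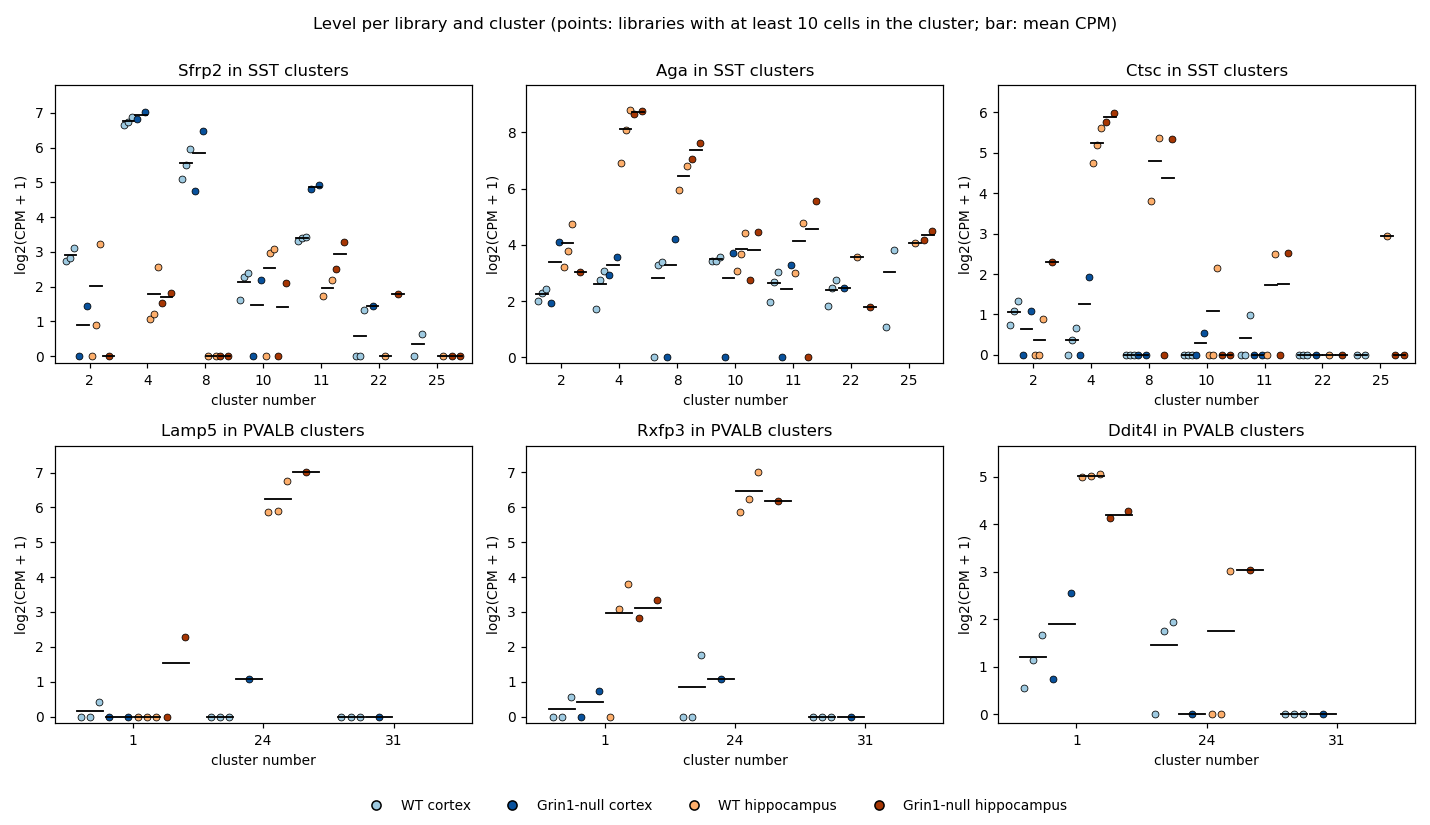
Levels per library and cluster, as log2(CPM + 1), for Sfrp2, Aga and Ctsc in the SST clusters and for Lamp5, Rxfp3 and Ddit4l in the PVALB clusters. Points are libraries with at least 10 cells in the cluster and bars are mean CPM. Cluster 4 holds the highest levels of Sfrp2 in cortex and of Aga in hippocampus, and clusters 24 and 1 those of Lamp5 and Ddit4l in hippocampus.

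In null PVALB cells Sfrp2, Ctsc, Rxfp3, Ddit4l and Lamp5 were higher in each hippocampal than in each cortical library (5 members, and 14.5% of 10246 genes). Of these, Ctsc, Rxfp3 and Ddit4l were higher in null hippocampal SST cells too. In WT PVALB cells Sfrp2, Rxfp3, Ddit4l and Lamp5 were (4 members, and 4.81% of genes). Sfrp2 thus had its higher level in hippocampus here and in cortex in SST cells. The filter on low counts kept 5 members and dropped Ctsc and RP24-323H7.4, which are not among the 10246 genes. At the threshold of 0.01, edgeR passed 7 genes (0.0683%), each lower in null hippocampus and none a member. At 0.05, 3 genes passed as higher (0.0293%), with Rxfp3 and Lamp5 among them. DESeq2 passed 13 (0.127%), with Lamp5 as the member among them, and the replicate block 96 (0.937%), with Rxfp3, Lamp5, Sfrp2 and Ddit4l. Without null cortex replicate 1 or 2 or null hippocampus replicate 1 or 2, edgeR passed 52, 38, 50 and 29 genes. The largest falls among the 7 genes that passed were those of Spp1, which encodes the secreted protein osteopontin (log2 = -6.82, adjusted p = 0.000234), and Megf11 (log2 = -4.16, adjusted p = 0.00791).

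Rxfp3 had 0, 0.759 and 0 CPM in PVALB cells of WT cortex and 25.9, 34.5 and 27.9 in WT hippocampus, and 0 and 0.619 in null cortex and 18.0 and 29.7 in null hippocampus. Cortical PVALB cells had almost none, and no hippocampal library was near them. The pooled ratio in null cells was 50.2 (13.6 to 419; 131 and 2 UMIs), and in WT cells 149 (39.1 to 1260.2). With log2 = 5.37 ± 0.73 (SE) and an adjusted p of 0.0101, Rxfp3 missed the threshold narrowly. It passed with the replicate block (1.28e-09), without null cortex replicate 1 (1.87e-07) and without null hippocampus replicate 1 (1.69e-08), and not without null cortex replicate 2 (0.278). Over 16 alternatives the adjusted p ran from 1.28e-09 to 0.328.

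Lamp5 read 0, 0 and 0.316 CPM in PVALB cells of WT cortex and 20.1, 23.6 and 18.2 in WT hippocampus. In null cortex it read 0 and 0.310 CPM and in null hippocampus 11.3 and 45.7. The regions did not overlap, and the 2 null hippocampal libraries differed from each other more than the 3 WT ones did. The pooled null ratio was 149 (26.4 to 5908; 194 and 1 UMIs) and the WT ratio 102 (26.2 to 875), and log2 was 6.604 ± 0.9505 (SE) with an adjusted p of 0.0136. Over 16 alternatives log2 ran from 2.55 to 8.78. The block gave an adjusted p of 2.02e-12 and DESeq2 0.00994. Leaving out null cortex replicate 1 or null hippocampus replicate 1 gave 2.74e-10 and 3.61e-13, leaving out null cortex replicate 2 gave 0.0505, and 16 alternatives ranged up to 0.897.

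Sfrp2 read 0, 1.14 and 3.32 CPM in PVALB cells of WT cortex, 5.75, 16.3 and 12.1 in WT hippocampus, 0 and 2.48 in null cortex, and 13.5 and 21.8 in null hippocampus. Ddit4l read 1.85, 0.759 and 1.26 CPM in WT cortex, 20.1, 20.0 and 26.7 in WT hippocampus, 3.54 and 0.310 in null cortex, and 13.5 and 13.1 in null hippocampus. For both genes all hippocampal libraries were the higher ones. Neither passed in the null contrast (log2 = 3.08 ± 0.64, adjusted p = 0.148, and log2 = 4.30 ± 0.93, adjusted p = 0.191), and both did with the block (4.90e-05 and 0.000290). Without null cortex replicate 1 the adjusted p was 0.00638 for Sfrp2 and 0.00116 for Ddit4l, and without null hippocampus replicate 1 it was 0.000992 and 0.00147. Over 15 alternatives each, the adjusted p ran up to 0.999995 for both genes. Aga, which separated the regions in SST cells, overlapped between them in PVALB cells (5.13 CPM pooled in null cortex and 10.7 in null hippocampus, log2 = 0.89 ± 0.61, adjusted p = 0.9995). Ctsc had 1 UMI in null cortex and 19 in null hippocampus (ratio 14.6, interval 2.32 to 606), and RP24-323H7.4 had 1 in each. Whether a member differs between SST and PVALB cells in its regional difference was not tested.

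In hippocampal PVALB cells Lamp5 and Rxfp3 lay mostly in 1 cluster and Ddit4l in another, while Sfrp2 was higher than in cortex in both. Cluster 24 (Kcng4 and Pthlh among its top genes; 106 WT and 103 null hippocampal cells) held Lamp5 at 58.4, 57.7 and 107 CPM in WT hippocampus and at 128 in null hippocampus replicate 2, the null hippocampal library with at least 10 of these cells. In cortex it held 0 UMIs of Lamp5 in WT and 1 in null libraries. The cluster supplied 100% of the Lamp5 UMIs of WT hippocampal PVALB cells and 94.8% in null libraries, and for Rxfp3 78.4 and 80.2%. Pooled Rxfp3 in this cluster was 1.15 CPM in WT cortex, 82.3 in WT hippocampus, 1.10 in null cortex and 69.5 in null hippocampus. Pooled Sfrp2 was 1.15, 28.8, 1.10 and 33.7 CPM in the same order. Sfrp2 was higher in hippocampus in cluster 1 too. With clusters 24 and 1 weighted equally, it read 17.3 CPM in WT hippocampus and 1.76 in WT cortex, and 24.3 and 2.01 in null libraries. Cluster 1 (Cartpt, Tac1, Tcap, Syt2 and Pvalb) held Ddit4l instead, at 30.7, 32.2 and 31.4 CPM in WT hippocampus and 18.3 and 16.4 in null hippocampus, next to 2.19, 0.461 and 1.21 in WT cortex and 4.84 and 0.665 in null cortex. It supplied 38 of the 40 Ddit4l UMIs of WT hippocampal PVALB cells and 81.7% of those of null ones, and all 19 Ctsc UMIs of the null ones. Cluster 31 (Crabp1, Kit) made up 23.6% of null cortical PVALB cells, against 2.95% of WT cortical ones, and had 0 UMIs of Lamp5, Rxfp3, Ctsc and Ddit4l in both.

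Lamp5 marks NGFCs, so NGFC markers were read beside it. The 7 NGFC markers, with Lamp5 left out, summed to 223, 174 and 173 CPM in PVALB cells of WT cortex, 399, 332 and 200.1 in WT hippocampus, 637 and 894 in null cortex, and 261 and 350.5 in null hippocampus. In null cortex the list was highest in cluster 31, at 2746 CPM with Hapln1 the most abundant (1405), and 131 in cluster 1. Ndnf was at 0 in 8 of the 10 libraries, and Id2 or Hapln1 was the most abundant gene in each. In cluster 24 the list summed to 336 CPM in WT cortex, 574 in WT hippocampus, 440.5 in null cortex and 390.3 in null hippocampus, with Ndnf at 0 in all 4 groups, and the 7 PVALB markers to 2912, 2923, 3964 and 3968. Hippocampal PVALB cells with a Lamp5 UMI carried the NGFC list at 979 CPM in WT and 580.2 in null libraries, and the others at 221 and 298. Those with an Rxfp3 UMI carried it at 549 CPM in WT and 429 in null libraries, and the others at 232 and 318. With an Sfrp2 UMI the levels were 516 and 413 CPM, and without one 258 and 321. NGFCs themselves carried the NGFC list at 3010 to 4336 CPM. Astrocytes (cluster 20, which also held mural and fibroblast markers, such as Acta2 at 433 and Dcn at 120 CPM) carried Ddit4l at 25.7 to 94.8 CPM. Their 6 markers summed to 52.8, 67.1 and 37.8 CPM in PVALB cells of WT cortex, 172, 69.0 and 52.1 in WT hippocampus, 39.0 and 57.3 in null cortex, and 67.6 and 78.8 in null hippocampus, with Aldoc or Slc1a2 the most abundant. Null hippocampal PVALB cells with a Ddit4l UMI had these markers at 120.1 CPM and the others at 69.7, and in WT at 269 and 45.1. The part of NGFC RNA in the Lamp5, Rxfp3 and Sfrp2 values of PVALB cells was not tested. Nor was that of astrocyte RNA in their Ddit4l values.

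In NGFCs the member that separated the regions most was Rxfp3. Null cortex replicate 1 had 4 NGFCs and was left out, so 1 cortical library stands against 2, and it is assumed to vary like the others. Rxfp3 read 0, 2.35 and 1.53 CPM in WT cortex and 82.5, 45.9 and 50.9 in WT hippocampus, and 0.908 in null cortex and 74.6 and 40.4 in null hippocampus. Cortical NGFCs had 1 or 2 UMIs per genotype, and all hippocampal libraries were high. The pooled ratio was 47.3 in null cells (8.44 to 1871; 409 and 1 UMIs) and 38.0 in WT cells (10.4 to 315). In the null contrast log2 was 5.91 ± 0.94 (SE) and the adjusted p 0.113. Library-size scaling in place of TMM gave 2.29e-07, clustering without integration 0.00697, and the range over 12 alternatives was 2.65e-08 to 0.453. The level was alike in the 2 hippocampal NGFC clusters, at 57.1 CPM in WT and 42.8 in null cells of cluster 3 and 47.5 and 45.0 in cluster 17.

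In null NGFCs 5 members (Sfrp2, Aga, Rxfp3, Ddit4l and RP24-323H7.4) were higher in both hippocampal libraries than in the cortical one, and Ctsc was lower. With 1 library against 2, 31.5% and 36.4% of the 9507 genes tested did the same, a set without Ctsc, Ddit4l and RP24-323H7.4. Some of these null counts were low. Ddit4l had 6 UMIs in hippocampus and 0 in cortex, too few to give a ratio, and Aga had 102 and 3. For Ctsc, with 15 and 4 UMIs, the interval of the ratio was 0.138 to 1.79, which includes equal levels. In WT NGFCs Aga, Rxfp3 and RP24-323H7.4 were higher without overlap (3.70% of genes), but with equal weight for each cluster the WT difference of Aga went from log2 = 0.89 to -0.03. The filter kept Sfrp2, Aga, Rxfp3 and Lamp5, and no member was among the 2 genes that passed (0.0210%), Vip (log2 = -6.01) and Hbb-bs (log2 = -4.79). Sfrp2 read 6.53, 14.1 and 26.0 CPM in WT cortex, 42.5, 14.04 and 32.9 in WT hippocampus, 17.2 in null cortex, and 54.1 and 37.3 in null hippocampus. It overlapped between the WT regions, and the null contrast did not pass (log2 = 1.39 ± 0.51, adjusted p = 0.999). Lamp5 was high everywhere, at 431, 409 and 539 CPM in WT cortex, 414, 265 and 598 in WT hippocampus, 513 in null cortex, and 443 and 582 in null hippocampus. Its regions overlapped in both genotypes (null log2 = 0.04 ± 0.35, adjusted p = 0.999). Whether the regional difference of Lamp5 differs between classes was not tested. Aga was at most 16.1 CPM in every NGFC library. RP24-323H7.4 had 0 UMIs in WT cortical NGFCs, which puts the WT hippocampal level at least 2.24-fold higher (floor of 3 counts over the group), and in null cells the ratio was 2.20 with an interval of 0.349 to 91.2.

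**Figure D3:**
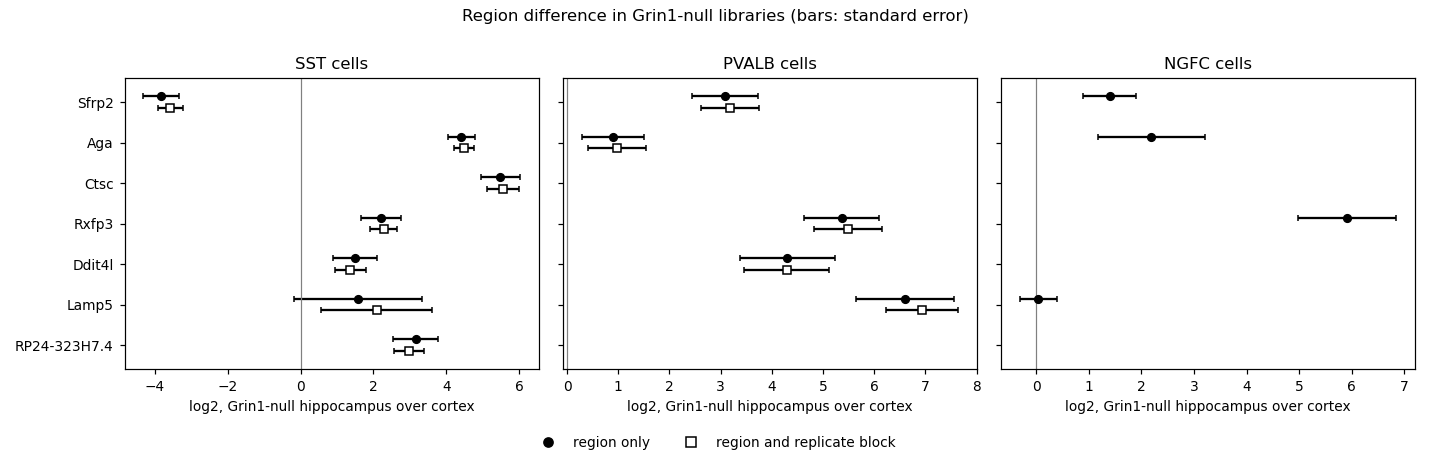
Difference between null hippocampus and null cortex for each member that passed the filter on low counts, as log2 with its standard error, from the model with region alone (filled circles) and with replicate number as a block (open squares; no block could be fitted in NGFCs). Sfrp2 lies at -3.83 in SST cells and at 3.08 in PVALB cells.

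Null and WT levels within a region are described without a test, since the WT values chose the genes. In SST cells of the hippocampus, Aga and Ctsc were higher in both null libraries than in all 3 WT libraries (2 members, and 9.26% of genes), by pooled ratios of 1.80 (1.66 to 1.94) and 1.96 (1.59 to 2.44). For Aga the replicates differ, since replicate 1 (v2) read 180.2 CPM in WT and 182 in null libraries, and the v3 libraries 97.5 and 83.2 in WT and 202 in null. Cluster 4 held 121 of 293, 146 of 834 and 82 of 356 hippocampal SST cells in the WT libraries and 34 of 103 and 363 of 832 in the null ones, shares that overlap between the genotypes. Within cluster 4 the null Aga libraries, at 403 and 429 CPM, lay inside the WT range of 118 to 437, and the null Ctsc libraries, at 53.2 and 63.0, above the WT range of 26.1 to 48.2. In SST cells of the cortex, Aga, Ddit4l and RP24-323H7.4 were higher in both null libraries (3 members, and 7.53% of genes), with pooled ratios of 1.43 (1.07 to 1.90), 2.36 (1.31 to 4.23) and 1.82 (0.873 to 3.71), the last an interval that includes equal levels. TH cluster 10, which held most cortical Ddit4l UMIs, made up 98 of 626, 121 of 1187 and 183 of 1626 cortical SST cells in WT libraries and 10 of 110 and 182 of 727 in null ones, which overlap. Pooled within it, Ddit4l read 8.19 CPM in WT and 10.3 in null cortex. In PVALB cells of the hippocampus, Ddit4l was lower in both null libraries (1 member, and 5.89% of genes), at 0.565 of the WT level (0.372 to 0.865). No member separated the genotypes in PVALB cells of the cortex, where 20.2% of genes did, or in NGFCs of the hippocampus, where 19.0% did. In NGFCs of the cortex, with 1 null library, Ctsc and RP24-323H7.4 were higher (2 members, and 23.4% of genes). Aga was lower there (1 member, and 18.2% of genes). These values rest on 4, 1 and 3 UMIs in the null library. Ctsc and RP24-323H7.4 are not among the genes behind these shares.

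Members were also paired within single cells. Of the 179 null hippocampal SST cells with a Ctsc UMI, 155 also had an Aga UMI (86.6%, and 23.8% of the others), with median depths of 15808 and 14718 UMIs. In WT hippocampus these shares were 64.3 and 14.1%, but the median depths there were 7048.5 and 3111 UMIs, and deeper cells show more genes. Of the 60 null hippocampal PVALB cells with an Rxfp3 UMI, 31 had a Lamp5 UMI (51.7%, and 5.81% of the others; median depths of 16856 and 14348 UMIs), while 1 of the 41 with a Ddit4l UMI did. Sfrp2 and Aga met in few null hippocampal SST cells, 3 of the 20 with an Sfrp2 UMI.

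Ctsc was detected in 19.1% of null hippocampal SST cells (935 cells, median 14843 UMIs) and in 0.597% of null cortical ones (837 cells, median 12955). With each cell thinned to 1000 UMIs these shares were 2.80 and 0.0448%, with 11 and 73 cells below that depth left out. Oligodendrocytes, which carried little of it, showed Ctsc in 0.442 and 0.885% of cells unthinned (medians 8348.5 and 7946 UMIs), and in 0.116 and 0.384% thinned. Sfrp2 was detected in 9.92% of null cortical SST cells (2.05% thinned), 2.14% of null hippocampal ones (0.185% thinned) and 0.0552% of null hippocampal oligodendrocytes. Lamp5 was detected in 15.0% of null hippocampal PVALB cells (3.56% thinned; 301 cells, median 15072 UMIs, 1 left out) and in 0.362% of null cortical ones (0.0335% thinned; 276 cells, median 13486, 9 left out), and Rxfp3 in 19.9% and 0.725%. The oligodendrocyte shares for Lamp5 were 0.884 and 0.197%. Aga was found in 35.8% of null hippocampal and 8.24% of null cortical SST cells (12.8 and 0.774% thinned), but oligodendrocytes carry Aga themselves (30.8 and 27.3%) and give no background for it.

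Across all cell types, each gene had its own order of levels. In null hippocampus the order for Aga was SST cells (192 CPM), microglia (70.3, 1 library), oligodendrocytes (43.0), astrocytes (28.2), oligodendrocyte precursors (OPCs, 20.8), NGFCs (13.2) and PVALB cells (8.94). The spread of astrocytes (SD 21.0, n = 2) covers its neighbours in that order, and NGFCs and PVALB cells overlap. For Ctsc microglia came first, with 657 CPM in 1 library, then SST cells (26.5), astrocytes (12.0) and PVALB cells (5.31). Rxfp3 was highest in NGFCs (57.5 ± 24.2), then SST cells (30.5 ± 4.13) and PVALB cells (23.9 ± 8.29), with both NGFC libraries above every SST and PVALB library, and SST and PVALB libraries overlapping. Lamp5 stood at 513 CPM in NGFCs, 29.7 in glutamatergic cells (1 library) and 28.5 ± 24.4 in PVALB cells. Ddit4l read 25.7 CPM in astrocytes, 19.8 in glutamatergic cells (1 library), 13.3 in PVALB cells and 8.68 in SST cells. Null cortex replicate 2 was the one null cortical library with enough glutamatergic cells and NGFCs. There Sfrp2 read 25.9 CPM in glutamatergic cells, 21.4 in SST cells and 17.2 in NGFCs. In null hippocampus Sfrp2 was highest in NGFCs (45.7 ± 11.9) and PVALB cells (17.6 ± 5.83). RP24-323H7.4 reached 15.9 ± 5.67 CPM in SST cells and 4.45 ± 4.06 in NGFCs of null hippocampus, and was at most 0.121 CPM in every other type there.

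Genes related to the members were read as lists. At the threshold of 0.01 no SST gene passed, members included, so the lists are described by their medians and by unadjusted p. The lists were written with earlier results known, and each holds its own members of the 7 where they belong. In SST cells 15 Wnt ligands, secreted Wnt antagonists and Wnt receptors were tested, of which 6 had an unadjusted p under 0.05 (600 of 12445 over all genes), and the median log2 was -0.23, with Sfrp1 at 0.01 and Wnt7a at 1.51. Such a p was found for 2 of 12 cathepsins and cathepsin inhibitors (median -0.10; Cst3 -0.08, Ctsb -0.13), 1 of 26 lysosomal hydrolases (0.09; Gaa 0.11, Ids -0.33), 1 of 14 lysosomal membrane proteins (0.15; Lamp1 0.16, Laptm4a 0.19) and 1 of 14 genes of the Ddit4 family and the mTORC1 pathway (0.03; Rheb -0.08, Tbc1d7 -0.07). The median over all 12445 genes was -0.01. Of the relaxin family 4 genes were tested, all 4 with an unadjusted p under 0.05 and a median of -1.56, and Rln1 at -1.52 (adjusted p = 0.435) ran opposite to Rxfp3 at 2.20. In PVALB cells 2 of 5, 0 of 10, 0 of 25, 1 of 11 and 1 of 14 genes of the first 5 lists had such a p (250 of 10246 over all genes; medians 0.06, -0.16, 0.10, 0.08 and 0.13), and in NGFCs 1 of 6 and 0 of 10, 22, 12 and 12 (167 of 9507 over all genes; medians -0.15, 0.01, 0.13, 0.02 and 0.21). No list gene passed at 0.01 in these classes. Rxfp3 was the sole relaxin-family gene with enough counts in those classes.

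Genes with the most similar profile were sought by Pearson correlation of log2(CPM + 1) over 29 sums of library and interneuron class, which share libraries and depth, among genes with a mean of at least 20 CPM. This limit leaves out Ctsc, RP24-323H7.4 and other scarce genes as partners. Under it, Ctsc and RP24-323H7.4 were most like Aga (r = 0.795 and 0.817), followed for Ctsc by Vstm2l (0.737) and Igfbp5 (0.708) and for RP24-323H7.4 by Igfbp5 (0.815) and Nr2f2 (0.744). The sums include the WT libraries, whose regional values chose the members. Likeness of Ctsc and RP24-323H7.4 to Aga is therefore partly set by that choice. Under the same limit Aga was nearest to Nr2f1 (0.730), G0s2 (0.710) and Timp3 (0.708). For Sfrp2 the nearest were Tox (0.735), Tmem158 (0.715) and Nos1 (0.690), and for Rxfp3 Ptprt (0.763), Nrp2 (0.758) and Fstl5 (0.745). Ddit4l was nearest to Cadm1 (0.812), AW551984 (0.755) and Nefl (0.748). Lamp5 followed Cacna2d1 (0.937), Fgf13 (0.931) and Rgs10 (0.930), and Cacna2d1 is on the list of NGFC markers.

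The regional differences of Aga, Ctsc and Sfrp2 in SST cells and of Rxfp3 and Lamp5 in PVALB cells were present in every null library, and the tested null contrast rests on 2 libraries per region. None of these 5 results passed at an adjusted p of 0.01 in edgeR with TMM scaling and region alone. Each passed once replicate number was added. That fit left 1 residual degree of freedom in SST and PVALB cells, where region alone left 2. Fits with 1 library left out in these classes also left 1. With region alone, DESeq2 passed Aga, Ctsc and Sfrp2 in SST cells and Lamp5 in PVALB cells. Library-size scaling in edgeR passed Rxfp3 in PVALB cells (adjusted p = 0.00990). Null replicate 1 is small, the animals within a library are not separable, and replicate number stands for chemistry and possibly for shared animals. Free RNA was not removed from the counts, and RNA levels say nothing of protein.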

How the data were processed

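The UMI counts were those deposited by the authors (Cell Ranger 2.1.1, mm10), with no realignment. The barcode suffix told libraries apart, and cell numbers in the study methods linked each to its replicate. Kept barcodes had between 200 and 6000 genes, with mitochondrial UMIs under 30%. Cells were clustered with Seurat 5.3.0 in R 4.3.3 after integration over libraries (2000 variable features without the 7 members, 25 dimensions, resolution 1.0). A cluster was named by at least 3 markers at 20 CPM or more, and unnamed clusters 18, 23, 30 and 34 were left out. Scrublet (in scanpy 1.11.5) marked 249 of 26201 cells as doublets (0.950%), which were kept in the model reported and removed in an alternative.

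UMIs were summed per library and class, with sums of under 10 cells left out. The null region contrast was fitted with edgeR 4.0.16 (limma 3.58.1) on null libraries alone with TMM scaling, its filter on low counts and Benjamini-Hochberg adjustment. Alternatives were DESeq2 1.42.0, library-size scaling, no filter, a replicate block, all 4 groups in the model, an adjusted p of 0.05, each library left out, resolutions of 0.6 and 1.4, no integration, members among the variable features, classes set cell by cell, a stricter cell filter (1000 genes, 10% mitochondrial), doublets removed and equal weight per cluster. Replicate number is also the 10x chemistry batch, and both regions of a replicate may come from the same animals, which the labels do not state. In each null region the deviation of replicate 1 from the mean of its region was taken per gene. These deviations correlated between cortex and hippocampus with r = 0.308 in SST and 0.225 in PVALB cells.

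Ratios are of pooled CPM with 95% counting intervals, with a floor of 3 counts where a group had none. Shares of cells were also computed by the hypergeometric formula for 1000 UMIs drawn per cell (thinned). Genes whose regional values are given besides the 7 are Grin1, per member the 3 most similar genes with a mean of at least 20 CPM, per list the 2 most abundant tested genes, and per class the 2 largest rises and falls that passed. Cell-type markers and top genes of clusters are named as such, and Qrfpr and Npffr1 were picked after their values were seen. Members and lists were chosen with earlier results of these data known. Python 3.11.15, numpy 2.4.6, scipy 1.17.1, pandas 2.3.3 and matplotlib 3.10.9 were used for the rest.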

Additional observations from a re-analysis of the deposited data

How the results depend on the processing

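The number of genes that passed in the null region contrast changed with the model. In SST cells it was 0, and 3 at an adjusted p of 0.05, 37 with DESeq2, 170 without the filter on low counts, 29 with the replicate block, 4 with all 4 groups in the model and 11 to 90 with 1 library left out. In PVALB cells it was 7, and 24 at 0.05, 13 with DESeq2, 54 without the filter, 96 with the replicate block, 1 with 4 groups, 29 to 52 with 1 library left out, 1 with members among the variable features, 0 without integration, 0 with classes set cell by cell and 1 with the stricter cell filter. In NGFCs it was 2, and 27 with library-size scaling, 29 without the filter, 0 with 4 groups, 19 with classes set cell by cell, 0 with the stricter cell filter and 5 with doublets removed. Among the fitted log2 values, Lamp5 changed sign in SST cells with DESeq2 (-0.76) and in NGFCs without null hippocampus replicate 2 (-0.12, no test). Among the level ratios without a test, some setting changed the sign for Lamp5 in null SST cells and WT NGFCs, RP24-323H7.4 in null PVALB cells, and Ctsc, Ddit4l and Aga in WT NGFCs (Aga from 0.89 to -0.03 with equal weight per cluster). With 1 library left out, log2 ran from 3.78 to 4.73 for Aga in SST cells. No block could be fitted in NGFCs (0 residual degrees of freedom), leaving out a library there gave no test, and without null cortex replicate 2 no cortical NGFC library was left. A setting without the low-UMI SST cluster was added after the data were seen and gave 4.42 for Aga, 5.48 for Ctsc and -3.76 for Sfrp2. The cause of these changes was not tested.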

Other observations

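Npffr1, which precedes RP24-323H7.4 in the gene list, was looked at after the values were seen. In SST cells it read 0.190, 0.764 and 1.51 CPM in WT cortex, 28.9, 19.7 and 27.1 in WT hippocampus, 2.22 and 2.22 in null cortex, and 33.4 and 23.4 in null hippocampus, and its profile followed RP24-323H7.4 over 29 sums (r = 0.934). Whether reads of RP24-323H7.4 and Npffr1 can be told apart was not tested.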
